A study of Rattus norvegicus with 24 samples.

Results

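The circadian clock genes described here are Clock, Per1, Per2, Per3, Cry1, Cry2, Nr1d1, Nr1d2, Dbp and Tef. They were chosen by name as parts of the core clock and its first outputs, and their rows were found by symbol and Entrez gene ID, giving 10 of the 17334 genes in the files. RNA was sequenced from the left kidney of 24 rats, 6 in each of 4 groups. All animals were males of the strain PKD/Mhm carrying Cy/+, a missense change of Anks6 in heterozygous form that leads to cysts in the kidney, and all were 8 months old. Ctrl animals received no treatment. CoCM animals received medium from a co-culture of ABCB5+ cells with stimulated macrophages derived from the human cell line THP-1, monthly, and the sources give its route both as intraperitoneal and as intravenous. Animals of the remaining groups, i.p. ABCB5+ and i.v. ABCB5+, were given human stromal cells from skin that carry the transporter ABCB5, monthly over 6 months, into the peritoneum (i.p. cells) or into a vein (i.v. cells). There was no group without Cy/+, so the clock of a healthy rat kidney was not measured, and the human cells or their secreted factors acted in a foreign host. The labels and the methods give no time of day for the removal of the kidneys.

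The clock is a feedback loop of transcription that runs in nearly every cell and takes about a day. CLOCK pairs with BMAL1 (or NPAS2 with BMAL1) and activates genes with an E-box in their promoters, among them the Per and Cry genes, whose proteins return to the nucleus and repress CLOCK and BMAL1. The same pair activates Nr1d1 and Nr1d2, which encode the REV-ERB receptors that repress Bmal1, and Dbp and Tef, which encode PAR bZIP factors that act on D-boxes. Bmal1 and Dbp therefore peak at nearly opposite times of day in peripheral tissues. In the kidney, clock factors are known to influence sodium handling, blood pressure rhythm and the timing of filtration.

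The promoters were searched for the letters of these elements. RefSeq windows from 250 bases before to 50 bases after a start, of the build GRCr8, were found for 9 of the 10 genes (11 windows), and Cry1 had none. The E-box CACGTG occurred in 6.42% of all 33469 windows of the rat, the non-canonical E-box CACGTT in 4.83%, the D-box TTANNTAA in 5.84% and the ROR element TAGGTCA, to which REV-ERB and ROR receptors bind, in 2.63%, each searched on both strands. Of the 11 windows, 5 held any of these, in 4 genes, namely Per2, Cry2, Nr1d1 and Tef. Clock, Per1, Per3, Nr1d2 and Dbp had none in these letters and this window. Further patterns were also searched and are not set in capitals. The half-site AGGTCA, which is part of the ROR element, occurred in 16.2% of all windows. The cAMP response element TGACGTCA occurred in 1.83% and its core TGACG in 21.2%, and the CCAAT box, which is common in promoters, in 37.5%. The stretches with a match are printed 5′ to 3′ on the strand of the gene, with the matched letters in capitals, and with those of Bmal1, the gene that ran against Dbp in these animals, and Ciart, the gene whose level followed Dbp most closely. Both were chosen after their values were seen. Positions count back from the start, with -1 as the base before it.
Per2, chr9:99497034-99497213, minus strand, D-box at -192 and CACGTT at -62: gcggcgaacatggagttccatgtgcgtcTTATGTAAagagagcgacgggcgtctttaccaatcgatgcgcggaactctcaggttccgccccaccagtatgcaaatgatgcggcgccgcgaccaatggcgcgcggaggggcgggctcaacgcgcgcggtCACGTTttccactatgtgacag
Cry2, chr3:98860618-98860677, minus strand, CACGTT on the other strand at -212: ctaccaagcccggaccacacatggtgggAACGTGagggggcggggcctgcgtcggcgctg
Nr1d1, first start, chr10:84231957-84232016, minus strand, CACGTT on the other strand at -174: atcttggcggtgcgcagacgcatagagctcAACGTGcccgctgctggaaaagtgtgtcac
Nr1d1, second start, chr10:84229615-84229674, minus strand, E-box at -191: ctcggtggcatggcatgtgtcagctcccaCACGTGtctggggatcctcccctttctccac
Tef, chr7:115206597-115206656, plus strand, E-box at -198: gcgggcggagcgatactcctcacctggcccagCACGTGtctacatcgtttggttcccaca
Bmal1, chr1:176766268-176766327, plus strand, ROR element at -16: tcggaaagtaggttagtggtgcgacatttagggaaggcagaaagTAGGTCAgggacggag
Ciart, chr2:186112247-186112366, minus strand, E-boxes at -93, -35 and -21: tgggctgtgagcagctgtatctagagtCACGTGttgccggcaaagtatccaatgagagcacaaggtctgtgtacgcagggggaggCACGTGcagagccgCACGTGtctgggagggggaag
A match is a description of the letters and was not tested as a site of binding.

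The files hold estimated counts per gene from RNA-seq and TPM (counts relative to transcript length and to the library's total). The counts were scaled to CPM, which is relative to the library's total after adjustment by TMM (a scaling factor for each library). Totals ran from 9304630 to 14125457 counts per animal. All 10 genes passed the filter on low counts, with 12778 genes tested, and the lowest count of any of them was 85, for Cry1. On the first principal component 4 animals stood apart, namely CoCM 39, i.p. ABCB5+ 38, i.v. ABCB5+ 36 and i.v. ABCB5+ 37, at 80.8 to 97.4 where the other animals lay between -53 and 11.5. The summed level of 4 markers of injured tubule was 392 to 717 CPM in these 4 animals and 6900 to 13600 CPM in the other 20. Several results for the 10 genes are given with and without them. Those of the other gene lists are given over all animals only. In whole tissue, fewer cells of a type and less RNA per cell cannot be told apart.

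Per transcript length, Dbp was the most abundant of the 10 genes and Cry1 the least. Dbp averaged 212 TPM over the 24 animals (SD 49.9) and Nr1d1 109 TPM (SD 18.5), and Dbp exceeded Nr1d1 in 24 of 24 animals. Nr1d2 followed at 45 TPM (SD 8.02), Tef at 44.5 TPM (SD 9.48) and Per1 at 40.6 TPM (SD 18.8). These 3 genes did not differ beyond their spread, since the log2 ratio of neighbours was 0.03 (SD 0.24) for Nr1d2 over Tef and 0.26 (SD 0.68) for Tef over Per1. Cry2 averaged 20.2 TPM (SD 3.86), Per2 16.3 TPM (SD 4.73), Clock 11.2 TPM (SD 2.23), Per3 10.9 TPM (SD 3.91) and Cry1 5.33 TPM (SD 1.15). Clock and Per3 were also within their spread, at a log2 ratio of 0.10 (SD 0.43). Bmal1, the partner of Clock, averaged 7.67 TPM (SD 2.09) and Npas2, its paralogue, 3.5 TPM (SD 1.1), so that Clock lay above its partner.

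**Figure D1:**
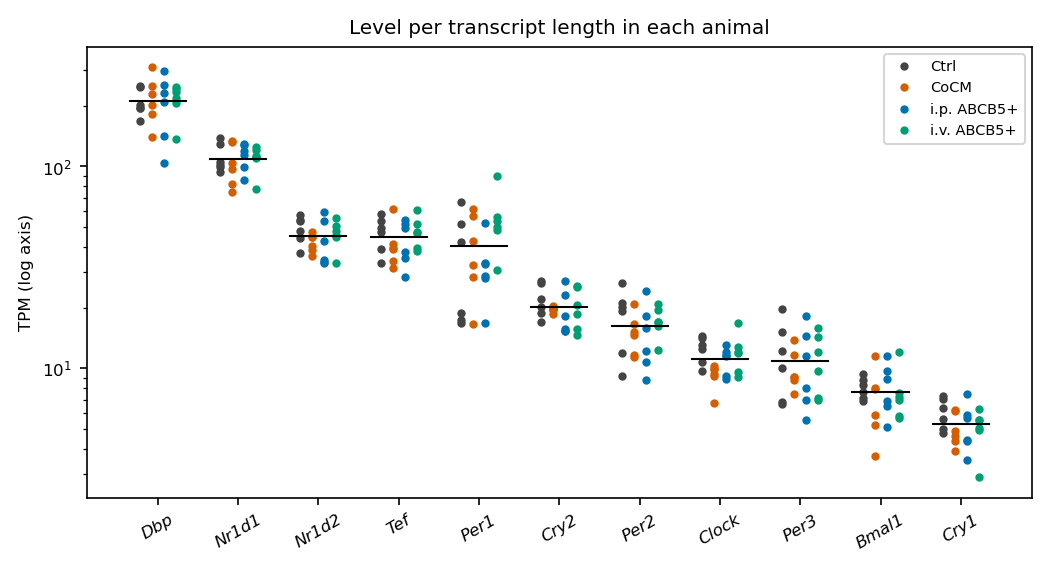
TPM (log axis) of each clock gene and of Bmal1 in each of the 24 animals, ordered by their mean, with points coloured by group and the bar at the mean over all animals. Dbp has the highest mean (212 TPM), followed by Nr1d1 (109 TPM), and Cry1 the lowest (5.33 TPM).

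The first comparison asked whether the treatments moved the level of the clock genes. At an adjusted p under 0.05 in edgeR's quasi-likelihood test, 0 of the 10 genes were called in CoCM, i.p. ABCB5+ or i.v. ABCB5+ animals against Ctrl, where 0.00783%, 0% and 0% of all genes tested were called. None was called between i.p. and i.v. ABCB5+ or between CoCM and the mean of both ABCB5+ groups (0% of all genes in each), nor over the 4 groups (0%). DESeq2, voom with sample quality weights and limma on log2 TPM also called 0 of the 10 genes in each of these comparisons. At an unadjusted p under 0.05, 1 of the 10 genes passed in CoCM against Ctrl (11.9% of all genes did), 0 after i.p. cells (1.77%), 0 after i.v. cells (5.78%), 1 between i.p. and i.v. ABCB5+ (2.14%), 1 between CoCM and both ABCB5+ groups (7%) and 1 over the 4 groups (4.71%). In a count added after the values had been seen, for none of the 10 genes did a group lie wholly above or below the other in CoCM against Ctrl (1.38% of all genes did), i.p. cells against Ctrl (0.047%), i.v. cells against Ctrl (0.11%) or i.p. against i.v. cells (0.0626%).

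The gene that passed the unadjusted threshold in CoCM was Clock (Entrez 60447), which encodes the activating subunit with acetyltransferase activity. Its level was 74.6, 84.7 and 96.5 CPM (lowest, median and highest) in Ctrl and 52, 72.4 and 75.9 CPM in CoCM. It was 68.2, 79.7 and 85.2 CPM after i.p. cells and 69.2, 83.1 and 115 CPM after i.v. cells. Within Ctrl, animals 1, 12 and 18 lay at 74.6 to 80 CPM and animals 22, 23 and 24 at 89.4 to 96.5 CPM. All 6 CoCM animals lay below the Ctrl mean and 5 of them below the whole Ctrl range, and the groups overlapped only through CoCM 39 and Ctrl 1. The fitted log2 fold change of CoCM over Ctrl was -0.31 ± 0.11 (SE), from a mean of 85 to 68.5 CPM (adjusted p = 0.327 by edgeR). Against the mean of both ABCB5+ groups it was -0.28 ± 0.096 (adjusted p = 0.688 by edgeR). The value was -0.36 ± 0.12 without the 4 animals that stood apart (adjusted p = 0.221) and -0.24 without CoCM 26, the animal with the lowest level. Of 4 endothelial markers, 2 were lower in CoCM at an unadjusted p under 0.05 (11.9% of all genes passed in either direction). Their summed level was 200 to 405 CPM in CoCM and 345 to 401 CPM in Ctrl. In the same comparison 1 of 3 podocyte and 1 of 6 proximal tubule markers were lower. Of 4 markers of collecting duct principal cells, 1 was higher. The part of these markers in the level of Clock was not tested. In i.p. and i.v. ABCB5+ animals the change of Clock was -0.11 ± 0.11 and 0.04 ± 0.11, with intervals of -0.34 to 0.12 and -0.19 to 0.27.

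Per1 (Entrez 287422), a repressor subunit that also responds within minutes to cAMP and to glucocorticoids, varied most among the 10 genes. Its level was 46.3, 89.4 and 173 CPM in Ctrl. There, animals 1, 12 and 18 lay between 46.3 and 57.5 CPM and animals 22, 23 and 24 between 121 and 173 CPM. Per1 was 48.8, 118 and 192 CPM with CoCM, 53.9, 91.9 and 137 CPM after i.p. cells and 117, 156 and 256 CPM after i.v. cells. Clock, Per2, Cry1, Nr1d1 and Tef separated the same Ctrl animals without overlap, Nr1d1 in the opposite direction. Per3, Cry2, Nr1d2 and Dbp did not. The i.v. values of Per1 overlapped those of Ctrl 22, 23 and 24, and what split the Ctrl animals was not tested. Every i.v. ABCB5+ animal lay above the Ctrl mean and above the i.p. ABCB5+ mean, and 4 of 6 i.p. ABCB5+ animals lay below the whole i.v. ABCB5+ range, with overlap in both comparisons. The log2 fold change of i.v. ABCB5+ over Ctrl was 0.71 ± 0.35 (adjusted p = 0.673 by edgeR), which missed the unadjusted threshold, and that of i.p. over i.v. ABCB5+ was -0.79 ± 0.35 (adjusted p = 1 by edgeR), which passed it. The first was 0.80 ± 0.39 without the 4 animals that stood apart. CoCM and i.p. ABCB5+ animals differed from Ctrl by 0.31 ± 0.34 and -0.08 ± 0.34 on the log2 scale.

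Of the genes that answer the same acute signals as Per1, some passed the unadjusted threshold in i.v. ABCB5+ animals and none was called. Of 7 glucocorticoid response genes, 3 were higher than in Ctrl at an unadjusted p under 0.05. Of all 12778 genes tested, 567 were higher and 171 lower (5.78% together). The median log2 fold change of the list was 0.21 (0.01 over all genes tested). Fkbp5, Nfkbia, Tsc22d3 and Zbtb16 did not pass, at 0.05 ± 0.22, 0.21 ± 0.19, 0.14 ± 0.18 and 0.13 ± 0.67. Of 8 immediate early genes, which are induced within minutes of a stimulus, 3 were higher, with a median of 0.53. Between i.p. and i.v. ABCB5+ animals the counts were 3 of 7 and 3 of 8 lower in i.p., where 186 of all genes tested were lower and 88 higher (2.14% together), with medians of -0.38 and -0.58 (0 over all genes tested). Jun, a subunit of the transcription factor AP-1, was 278, 312 and 342 CPM in Ctrl and 386, 444 and 510 CPM after i.v. cells, a log2 fold change of 0.49 ± 0.14 (adjusted p = 0.673 by edgeR). Its CPM in these groups did not overlap, as for 0.11% of all genes tested. Nr4a1, an orphan nuclear receptor, was 61.3 ± 19.5 CPM (SD, n = 6) in Ctrl and 159 ± 68.6 CPM after i.v. cells, a log2 fold change of 1.38 ± 0.43 (adjusted p = 0.673 by edgeR). Dusp1, a phosphatase of MAP kinases, was 103 ± 40 CPM in Ctrl and 171 ± 56.7 CPM after i.v. cells, a log2 fold change of 0.73 ± 0.30 (adjusted p = 0.673 by edgeR). Whether these genes and Per1 had a shared source of variation was not tested.

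**Figure D2:**
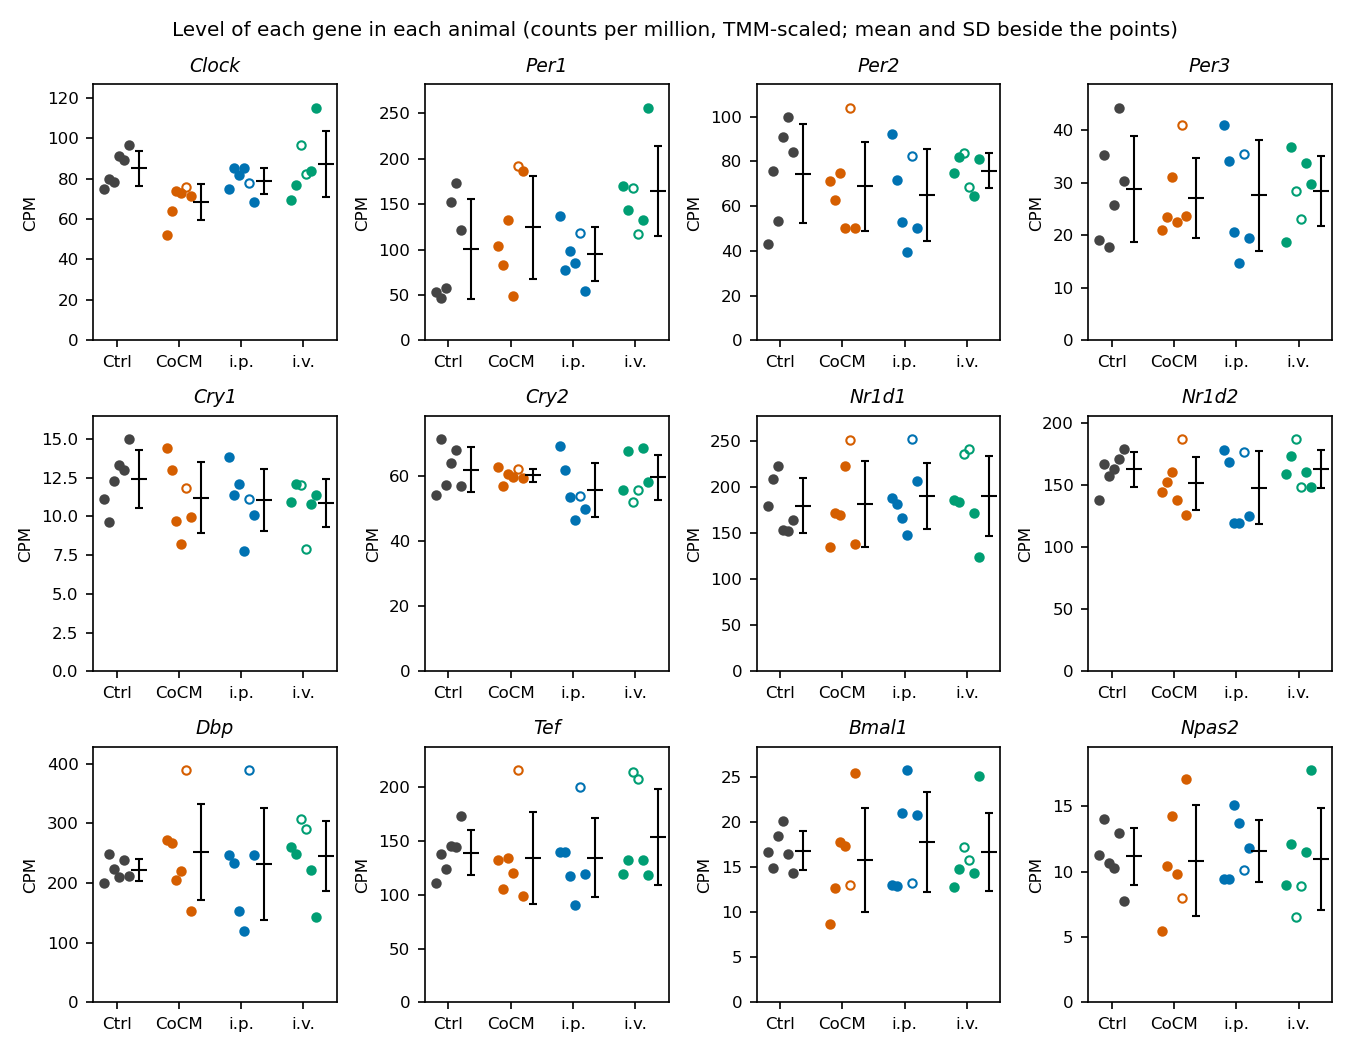
CPM of the 10 clock genes, Bmal1 and Npas2 in each animal by group, with the mean and SD beside the points and open circles for the 4 animals that stood apart on the first principal component. Clock is lowest in CoCM (52 to 75.9 CPM) and Per1 highest in i.v. ABCB5+ (117 to 256 CPM). The 4 highest Dbp values in CPM, though not in TPM, belong to the open circles.

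The other Per and Cry genes, which encode the remaining repressors, gave no call in any treatment either. Per2 (Entrez 63840) was 43.2, 79.9 and 100 CPM in Ctrl, 50.4, 67 and 104 CPM with CoCM, 39.6, 62.4 and 92.3 CPM after i.p. cells and 64.5, 78 and 83.7 CPM after i.v. cells. The groups shared most of their range, and the log2 fold changes against Ctrl were -0.12 ± 0.21, -0.20 ± 0.21 and 0.02 ± 0.21. Per3 (Entrez 78962) had group means of 27.1 to 28.7 CPM and a range of 14.8 to 44.2 CPM over all animals. Cry1 (Entrez 299691) averaged 12.4 ± 1.85 CPM (SD, n = 6) in Ctrl and 11.2 ± 2.28, 11.1 ± 2.03 and 10.8 ± 1.53 CPM with CoCM, i.p. cells and i.v. cells, with log2 fold changes of -0.14, -0.16 and -0.19 (SE 0.15 each). Cry2 (Entrez 170917) was the steadiest of the 10 genes, at 46.6 to 71.5 CPM over all animals. Its largest difference from Ctrl was -0.15 ± 0.092 in i.p. ABCB5+ animals (adjusted p = 0.978 by edgeR).

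The REV-ERB genes and the PAR bZIP genes, which the activators drive directly, gave no call. Nr1d1 (Entrez 252917) averaged 180 ± 29.4 CPM in Ctrl, 181 ± 46.5 with CoCM, 190 ± 36 after i.p. cells and 190 ± 43.7 CPM after i.v. cells (SD, n = 6). Nr1d2 (Entrez 259241) averaged 163 ± 14.1, 151 ± 20.9, 148 ± 29.1 and 163 ± 15.2 CPM in the same order, with log2 fold changes from -0.14 to 0 against Ctrl (SE 0.11 each). For both genes the groups overlapped throughout.

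Dbp (Entrez 24309) was 201, 217 and 248 CPM in Ctrl, 154, 244 and 390 CPM with CoCM, 119, 241 and 390 CPM after i.p. cells and 144, 254 and 307 CPM after i.v. cells. The Ctrl animals lay inside the range of every treated group, and the 4 highest CPM of all 24 animals (291 to 390) belonged to the 4 animals that stood apart. This ranking depended on the scale. On TPM, CoCM 39 and i.p. ABCB5+ 38 were highest, at 309 and 297. There i.v. ABCB5+ 36 and 37 were at 243 and 207, below i.p. ABCB5+ 29 at 254. The log2 fold changes of Dbp against Ctrl were 0.18 ± 0.23, 0.06 ± 0.23 and 0.14 ± 0.23. Leaving out each animal, the CoCM value ran from 0.01 to 0.29. Without the 4 animals that stood apart, the i.p. and i.v. ABCB5+ values were -0.14 ± 0.19 and -0.03 ± 0.21, so that their sign turned. Tef (Entrez 29362) was 111, 141 and 173 CPM in Ctrl, 98.6, 126 and 216 CPM with CoCM, 90.8, 129 and 200 CPM after i.p. cells and 118, 132 and 214 CPM after i.v. cells. Its highest value in each treated group also belonged to an animal that stood apart, and its i.v. ABCB5+ value went from 0.14 ± 0.20 to -0.15 ± 0.13 without them. What the low markers of tubular injury in these animals had to do with Dbp and Tef was not tested.

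**Figure D3:**
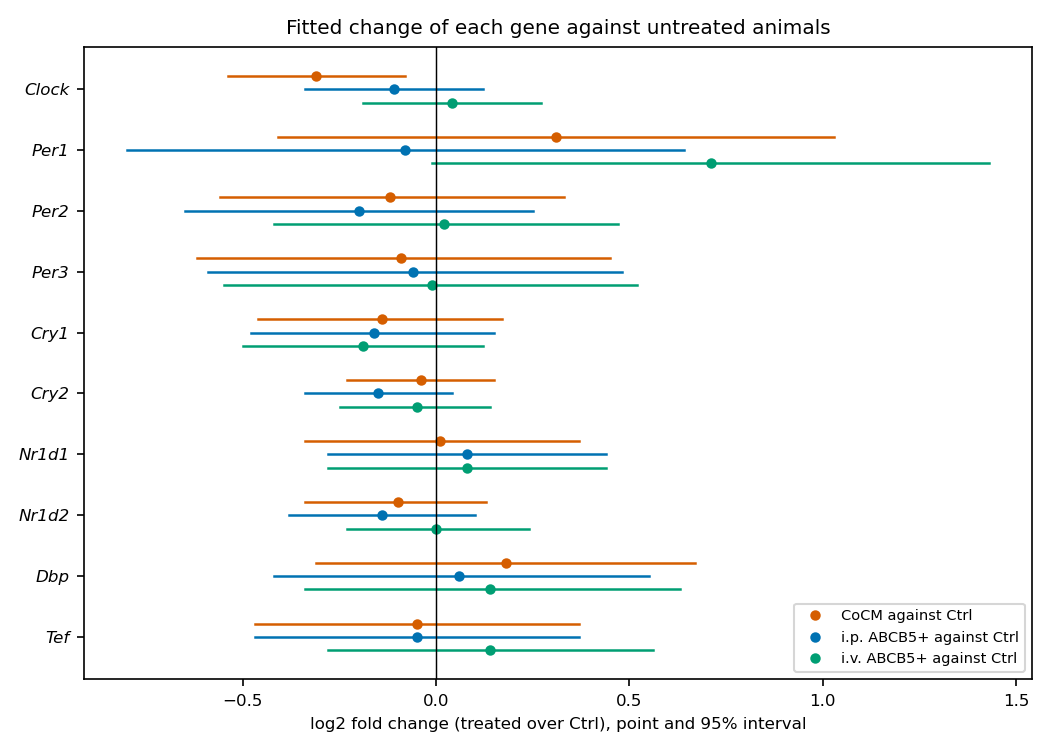
Fitted log2 fold change of each clock gene against Ctrl in the 3 treated groups, with the 95% interval of edgeR's fit. Of the 30 intervals, only that of Clock in CoCM (-0.54 to -0.08) leaves out 0, before adjustment, and that of Per1 in i.v. ABCB5+ runs from -0.01 to 1.43.

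The other genes of the clock, from lists that were also drawn up with earlier results known, gave no call. Among 4 clock activators tested, 1 was lower in CoCM at an unadjusted p under 0.05 (Clock itself), where 11.9% of all genes passed in either direction. Of these activators, 0 were called in any comparison against Ctrl. Bmal1 was 14.3, 16.6 and 20.1 CPM in Ctrl, 8.66, 15.1 and 25.4 CPM with CoCM, 12.9, 17 and 25.8 CPM after i.p. cells and 12.8, 15.3 and 25.1 CPM after i.v. cells. As for Dbp, Ctrl lay inside the range of each treated group, and the log2 fold changes were -0.09, 0.08 and -0.01 (SE 0.22 each). Npas2 changed by -0.04, 0.05 and -0.03 (SE 0.24 each). Of 8 kinases and ubiquitin ligases that set the life of PER and CRY proteins, 0 passed even the unadjusted threshold against Ctrl in any treatment. With CoCM, i.p. cells and i.v. cells, 11.9%, 1.77% and 5.78% of all genes passed it. Csnk2a1 and Fbxw11, 2 of these 8, were lower in CoCM than in both ABCB5+ groups at that threshold (7% of all genes passed it). Their differences were -0.36 ± 0.14 and -0.15 ± 0.069 on the log2 scale (adjusted p = 0.688 by edgeR for each). At that threshold 1 of the 8 was lower after i.p. cells than after i.v. cells (2.14% of all genes passed). Of 3 other repressors at E-boxes that were tested, 1 passed the unadjusted threshold in CoCM against Ctrl, where 11.9% of all genes did. It was Cipc, which was lower in CoCM than in Ctrl (-0.17 ± 0.064, adjusted p = 0.353 by edgeR). Cipc, Csnk2a1 and Fbxw11 were named after their values had been seen. Of 8 rhythmic output genes, 0 with CoCM, 1 after i.p. cells and 1 after i.v. cells were higher than in Ctrl at an unadjusted p under 0.05. The shares of all genes that passed were 11.9%, 1.77% and 5.78%. Between the routes, 1 was lower after i.p. cells than after i.v. cells (2.14% of all genes passed), and 0 were called.

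The second question was how the clock genes varied among animals within the groups. The log2 SD within groups was 0.641 for Per1, higher than for 82.4% of all genes tested, and 0.464 for Per3, 0.427 for Dbp, 0.393 for Per2, 0.356 for Tef and 0.307 for Nr1d1. It was 0.255 for Cry1, 0.196 for Nr1d2, 0.191 for Clock and 0.157 for Cry2, the last higher than for 18% of all genes, where the median of all genes was 0.3. Counting error was below this spread for each gene, but not by the same margin. The log2 SD expected from the counts alone was 0.0268 for Dbp, 0.0528 for Cry2 and at most 0.121, for Cry1. The groups accounted for 37.4% of the variance of Clock, 25.4% of that of Per1 and 0.909% of that of Per3, with a median of 12.6% over all genes tested.

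Several clock genes varied together across animals. Pearson's r and Spearman's rho were computed on log2 CPM for the 55 pairs of the 10 genes and Bmal1, with p from 100000 permutations and adjustment over the 55 pairs. Among the 45 pairs of the 10 genes, 16 had an adjusted p under 0.05 for r, and all 16 were positive over the 24 animals. The share of pairs of other genes that would pass was not computed, so this count cannot be read as a trait of clock genes. Of all 55 pairs, 19 passed for r and 14 for rho. The closest pair was Per2 with Nr1d2, at r = 0.85 and rho = 0.87 (permutation p = 1e-05 for each, the smallest that this number of permutations can give, adjusted p = 0.000183 and 0.000275). Per2 also went with Per3, at r = 0.81 and rho = 0.78 (permutation p = 1e-05 for each, adjusted p = 0.000183 and 0.000275). Per3 went with Nr1d2 at r = 0.76 and with Cry2 at r = 0.71, and Dbp went with Tef at 0.75 and with Nr1d1 at 0.72. Over all 24 animals Per1 passed with Per2 alone, at r = 0.61 and rho = 0.62 (permutation p = 0.0017 and 0.00143, adjusted p = 0.00779 and 0.00786), and its r with Dbp was 0.03. Clock passed with none of the other 9 genes, its r running from -0.30 with Dbp to 0.35 with Per1.

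Bmal1 ran against Dbp, which its protein activates. Its r with Dbp was -0.73 and its rho -0.70 (permutation p = 9e-05 and 0.00025, adjusted p = 0.000786 and 0.00229). Its r was -0.55 with Nr1d2, whose protein represses it (rho -0.53, permutation p = 0.005 and 0.00889, adjusted p = 0.0183 and 0.0349), and 0.51 with Clock, its partner (rho 0.30, permutation p = 0.0107 and 0.156, adjusted p = 0.031 and 0.268). Against Per2 and Cry1 its r was -0.45 and -0.44, with adjusted p of 0.0739 and 0.078. The relation of Dbp to Bmal1 was -0.72 for deviations from the group means, -0.81 without the 4 animals that stood apart, -0.74 on log2 TPM and -0.72 without the 2 animals farthest from the median of Bmal1. The relation of Clock to Bmal1 fell to r = 0.30 without the 2 animals farthest from the median of Bmal1 (adjusted p = 0.287), so it rested on those animals. The pair of Nr1d2 and Bmal1 was -0.65 without the 2 farthest animals but -0.16 on log2 TPM (adjusted p = 0.54), so this relation depended on the scale.

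**Figure D4:**
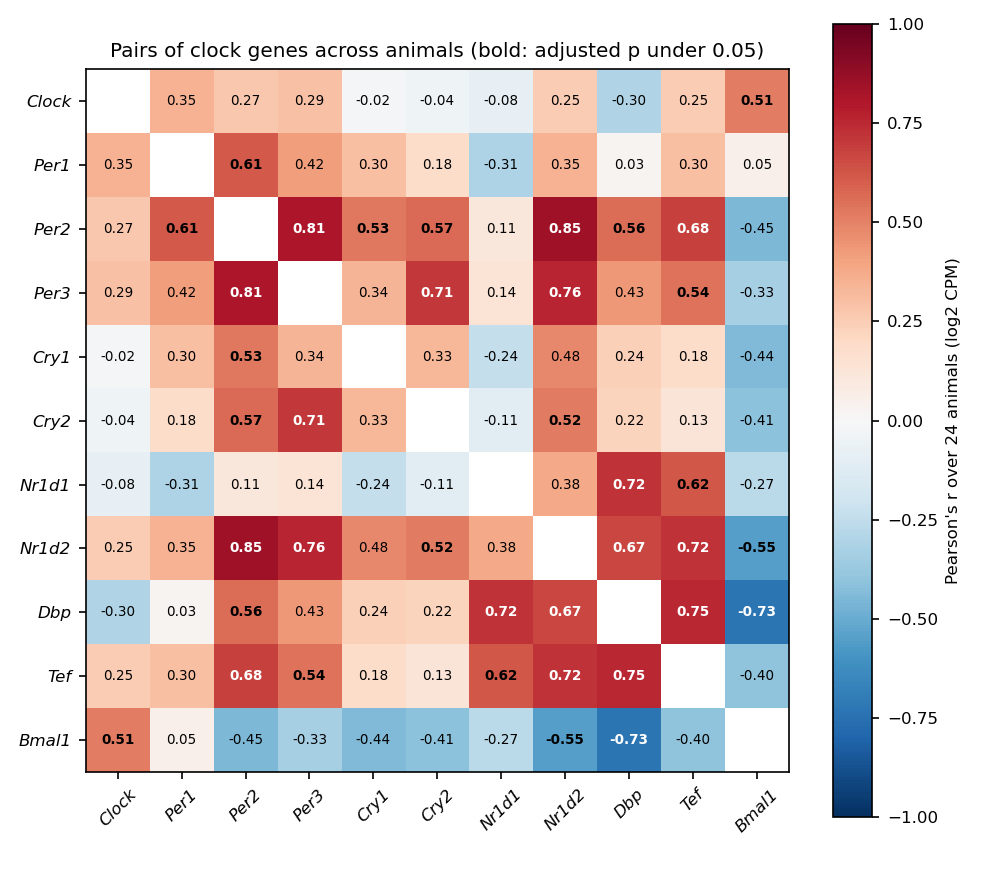
Pearson's r over the 24 animals for each pair of the 10 clock genes and Bmal1 on log2 CPM, with bold values where the p adjusted over the 55 pairs is under 0.05. Red cells join Per2, Per3, Nr1d2, Dbp and Tef, and the blue row of Bmal1 is deepest at Dbp (-0.73).

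Several pairs among the 10 genes depended on the animals that stood apart. Without those 4 animals, 19 of 55 pairs again passed for r, and 15 of them were among the 19 of all animals. Of the 16 pairs among the 10 genes that then passed, 15 were positive and 1 was negative. The negative pair was Per1 with Nr1d1, at r = -0.72 and rho = -0.60 (permutation p = 0.00041 and 0.00564, adjusted p = 0.00225 and 0.0258), where r over all 24 animals was -0.31 (adjusted p = 0.227). Dbp with Tef was then 0.52 (adjusted p = 0.0504), Nr1d1 with Dbp 0.50 (adjusted p = 0.0597), Nr1d1 with Tef 0.15 (adjusted p = 0.606) and Per2 with Dbp 0.45 (adjusted p = 0.0902). Without the 2 animals farthest from the median of the first-named gene of each pair (Bmal1 in its pairs), 13 passed, 12 of them shared. On log2 TPM 27 passed, 18 of them shared, and the median r of the 45 pairs rose from 0.34 to 0.51.

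The ratio of Dbp to Bmal1 was taken as a description of where an animal lay between a state of high Dbp with low Bmal1 and its opposite, after the pair had been seen to run in opposite directions. On the log2 scale it was 3.38, 3.72 and 4.04 in Ctrl (lowest, median and highest), 2.59, 4.03 and 4.95 in CoCM, 2.20, 3.86 and 4.87 after i.p. cells and 2.51, 4.10 and 4.33 after i.v. cells. By this ratio the Ctrl animals lay close together, with an SD of 0.24, and the treated groups spread more widely, with SDs of 0.91, 0.98 and 0.67. This did not hold for every gene. Per2 ran from 43.2 to 100 CPM in Ctrl and from 64.5 to 83.7 CPM after i.v. cells. The lowest ratios were those of i.p. ABCB5+ 32 (2.20), i.v. ABCB5+ 43 (2.51), CoCM 40 (2.59) and i.p. ABCB5+ 31 (2.87). All were treated, as were all but 6 of the 24 animals, and none was among the 4 that stood apart. In these 4 animals Dbp was 119, 144, 154 and 154 CPM, below all Ctrl animals, and Bmal1 was 25.8, 25.1, 25.4 and 21 CPM, above all Ctrl animals. Since the ratio picked these animals, low Dbp and high Bmal1 follow in part from that choice. The highest ratios were those of CoCM 26 (4.95), CoCM 39 (4.89) and i.p. ABCB5+ 38 (4.87). In CoCM 26 this came with the lowest Bmal1 and the lowest Clock of all 24 animals, at 8.66 and 52 CPM. Time of sampling was not recorded in the sources used here, and its part in these differences was not tested.

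**Figure D5:**
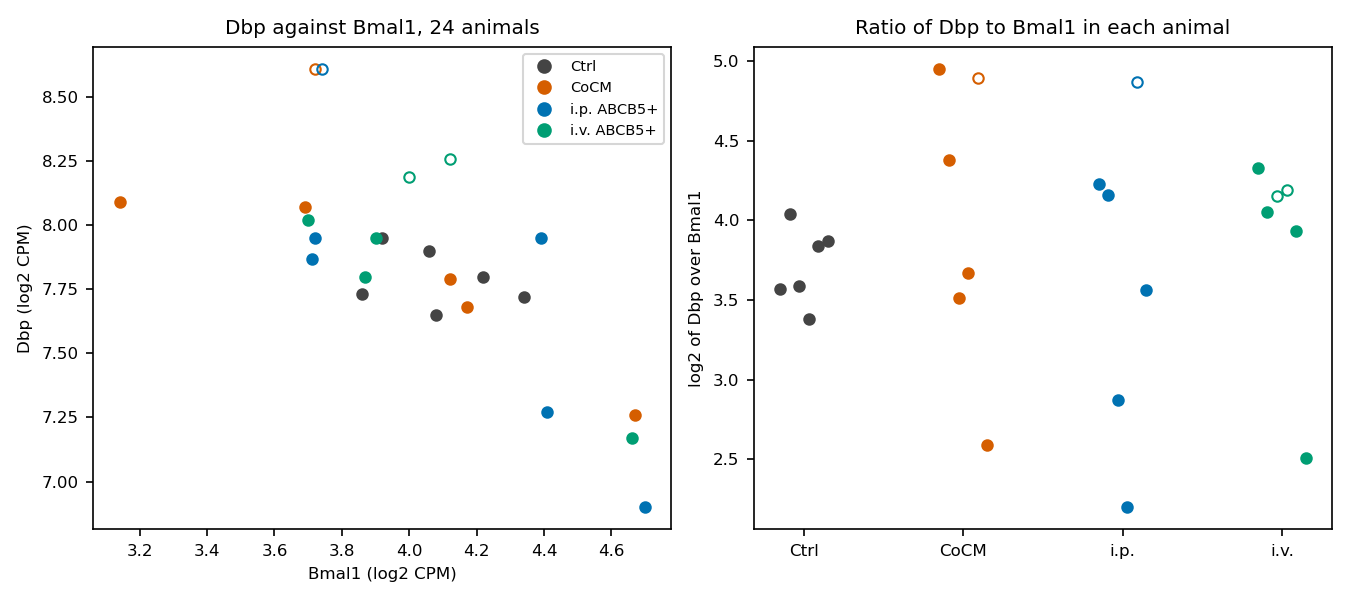
Left, Dbp against Bmal1 (both log2 CPM) in the 24 animals by group, with open circles for the 4 that stood apart. Right, the log2 ratio of Dbp to Bmal1 in each animal, with Ctrl between 3.38 and 4.04 and the treated animals between 2.20 and 4.95.

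Across 11643 genes other than the 10 with a level that allowed the comparison, the gene most like Dbp over the 24 animals was Ciart, a repressor of CLOCK and BMAL1 whose promoter stretch is shown above with 3 E-boxes, at r = 0.87, followed by Pip4p2 at 0.76 and Fam120b at 0.75. Without the 4 animals that stood apart Ciart was again first, at 0.85, and Bmal1 had the most negative r of all, at -0.81. Over all 24 animals Bmal1 was the fifth from the lowest, and Serpini1 the lowest at -0.80. Among these genes Per2 was most like Peg3 (0.79), Fam135a (0.76) and Pnpla7 (0.76), below its r with Nr1d2 and Per3, and without the 4 animals most like Lpin2 (0.84), Kdm3a (0.82) and Ino80 (0.81). Clock was most like Snx29 (0.90), Glcci1 (0.89) and Wdfy1 (0.88) and least like Eif3k (-0.91), which encodes a subunit of a translation initiation factor. Without the 4 animals the last value was -0.93. These values of r share libraries and scaling and are descriptions.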

How the data were processed

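Left kidney RNA of 24 rats was sequenced on the BGISEQ-500. The authors deposited, for each animal, estimated counts and TPM per gene. The submitters' processing notes name Trim Galore 0.6.4, kallisto 0.4.6 and the build rn6, without roles. In the methods, DESeq2 and an R package with human gene models (hg19) are given. The deposited counts were rounded, filtered by group (12778 of 17334 genes), scaled by TMM and tested with edgeR 4.0.16 (quasi-likelihood, R 4.3.3) over all 24 animals with one mean for each group and Benjamini-Hochberg adjustment. Log2 CPM used a prior count of 2. DESeq2 1.42.0, limma 3.58.1 (voom, and log2(TPM + 1)), other filters and samples were alternatives. Permutation tests of correlations were run in Python 3.11.15. The count test was tested on simulated data. Depth was 9304630 to 14125457 counts, so counting error was below the spread between animals for the genes reported. The members and gene lists were chosen with earlier results of these data known. All 10 members were named, with Bmal1 and Npas2 beside them, and other listed genes where the 4 groups differed at an unadjusted p under 0.05. Cipc, Csnk2a1, Fbxw11, Fkbp5, Nfkbia, Tsc22d3 and Zbtb16 fell outside this rule and were named after their values had been seen. The 5 genes most like Dbp, Per2 and Clock were computed, of which the first are given. The labels do not say how animals were paired or housed, and p-values measure the spread between these animals. The roles of counting and gene models were not given, and shared reads of paralogues such as Per1 and Per2 could not be checked. Promoter stretches are from RefSeq (GRCr8) and were not converted to rn6.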

Additional observations from a re-analysis of the deposited data

Results flagged for a closer look

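In i.v. ABCB5+ animals, Cry1 of animal 37 was the lowest and lay apart from the other 5, with a gap to the nearest of 0.739 of the whole range of the group, beyond Dixon's 95% critical value for 6 samples. Its level was 7.9 CPM, from 85 counts, against a median of 11.1 CPM. Of 44 combinations of gene and group examined, 1 was beyond the limit, and chance gives about 1 in 20, or 2.2. This animal is among the 4 that stood apart on the first principal component.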

How the results depend on the processing

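The count of clock genes called was 0 in each comparison under every alternative run, including each fit that left out an animal. The count over all genes in CoCM against Ctrl, 1 by edgeR, was 78 by DESeq2, 183 by voom with sample quality weights, 0 by limma on log2(TPM + 1), 0 with only the groups compared and 0 without the 4 animals that stood apart. Leaving out each animal gave 0 to 31, the latter without Ctrl 23. DESeq2 called 1 gene in i.v. ABCB5+ against Ctrl, 1 between the routes, 3 in CoCM against both ABCB5+ groups and 10 over the 4 groups. Voom called 2 in CoCM against both ABCB5+ groups and 1 over the 4 groups, and without Ctrl 23 edgeR called 1 over the 4 groups (0 to 1 over the animals left out). The cause was not tested.

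Of the 30 log2 fold changes against Ctrl, 12 turned their sign under at least 1 alternative that kept every animal or left out the 4 that stood apart, in 29 instances over these alternatives, all uncalled. For Nr1d2 after i.v. cells, 0 in edgeR, it was 0 with median-ratio factors, -0.01 with no low-count filter, -0.02 with at least 10 counts in every sample, 0 by DESeq2, -0.08 on log2(TPM + 1) and -0.02 without the 4 animals. For Nr1d1 with CoCM it was -0.01 with at least 10 counts in every sample, 0 by voom, -0.12 on log2(TPM + 1) and -0.11 without the 4 animals. By voom it was -0.01 for Per1 with CoCM, -0.36 for Dbp and -0.05 for Nr1d1 after i.p. cells, and after i.v. cells 0.05 for Cry2, -0.03 for Nr1d1, -0.06 for Tef, -0.04 for Clock and 0.28 for Per3. On log2(TPM + 1) it was -0.09 for Dbp after i.p. cells, and after i.v. cells -0.02 for Nr1d1, -0.06 for Clock and -0.01 for Per2. Without the 4 animals it was -0.14 for Dbp and -0.01 for Nr1d1 after i.p. cells, and after i.v. cells 0.01 for Cry2, -0.03 for Dbp, -0.12 for Nr1d1, -0.15 for Tef and 0.05 for Per3. Leaving out each animal, signs turned within -0.08 to 0 for Cry2, -0.1 to 0.08 for Nr1d1, -0.24 to 0.02 for Tef and -0.24 to 0.06 for Per3 with CoCM. The ranges were -0.15 to 0.18 for Dbp, -0.02 to 0.15 for Nr1d1, -0.24 to 0.13 for Per1, -0.22 to 0.1 for Per3 and -0.2 to 0.03 for Tef after i.p. cells. They were -0.06 to 0.08 for Clock, -0.01 to 0.18 for Nr1d1, -0.05 to 0.03 for Nr1d2, -0.09 to 0.11 for Per2 and -0.12 to 0.14 for Per3 after i.v. cells. The r of Cry2 and Bmal1, -0.41, was 0.09 on log2(TPM + 1).

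No paired analysis was possible because no animal number occurs in 2 groups. The lowest count of these genes was 85. Counting error was below the spread between the 6 animals of a group, and was the largest share of it for Cry1.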
